A study of Mus musculus with 2 samples.

Results

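The SOCS family comprises Cish and Socs1 to Socs7, and its 8 genes were taken by symbol from the gene column of the deposited array table, with every probe of each. They had 17 of the 56605 gene probes of the array and were 8 of its 26883 named genes. RNA of a stem cell line was hybridised to 2 single-colour arrays. The line had been grown as neurospheres, in serum-free medium with EGF and bFGF, from a mouse glioblastoma that a Sleeping Beauty transposon had induced. The control array held cells transduced with a lentivirus carrying a non-target hairpin RNA, and the knockdown array held cells of the same line stably transduced with a hairpin against Stat5b. There was 1 array of each kind and 1 Stat5b hairpin is named, so no difference could be set against the spread between cultures or between hairpins, and no test was run. The labels give neither the age of the mouse nor whether the stable cells were a single clone.

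SOCS proteins (suppressors of cytokine signalling) are the feedback brake of the JAK-STAT pathway. Cytokine receptors activate Janus kinases, these phosphorylate STAT factors, and the STATs switch on SOCS genes. The SOCS proteins then bind the receptor or the kinase through an SH2 domain, and through their SOCS box they recruit elongins and a cullin that tag the bound protein for degradation. Cish and Socs2 are textbook targets of STAT5, Socs3 of STAT3 and Socs1 of interferon signalling.

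Socs6 was the lowest gene of the family on the knockdown array and Socs2 the highest. Socs6 was 1.80-fold lower, with its 3 measured probes side by side. Socs2 was 1.48-fold higher on average, but this came from probes of its Ensembl transcripts, while the probes of its RefSeq mRNA differed little. The other members, among them the STAT5 target Cish, lay between -0.01 and 0.29 in log2 difference. None of the 8 genes was at least 2-fold higher (0 of 8, against 3.67% of the 16354 genes measured on both arrays) or at least 2-fold lower (0 of 8, against 2.41%), and 6.08% of genes passed 2-fold either way.

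Sequences are shown for the probes that read Socs2 and for matches to STAT-type and interferon-type elements near the starts of Cish, Socs3 and Socs1. The Socs2 probes are shown because they disagree with each other. The first 30 of the 60 bases of each are given 5′ to 3′ as the deposited table writes the probe, the first pair from the RefSeq mRNA NM_007706 and the second pair from the Ensembl transcripts ENSMUST00000130784 and ENSMUST00000139210.
A_51_P107362: aggtgtgaagatgtagctaggtattttaaa
A_55_P1992838: tgacagtgtggttcatctgattgactacta
A_52_P84037: tgtcataggagaaactacatctgggaaatt
A_55_P2072586: gccaatgctgacacaaagacaatctcttaa

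GC content did not separate the pairs, at 36.7% and 45.0% for the RefSeq probes and 45.0% and 35.0% for the Ensembl ones. Over all 136 pairs of family probes the longest run of bases in common was 11, between probes of Socs1 and Socs6. Where these probes lie in exons was not analysed here, because no genome of the array's build was used.

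Cish, Socs1, Socs3 and Socs4 had a promoter sequence in the RefSeq table of build GRCm38.p6, which runs from 250 bases before to 50 bases after the start of a gene. The STAT element TTCNNNGAA, which reads the same on both strands, was found in those of Cish and Socs3, and in 8.30% of all 32851 promoters. Cish had a pair of them, starting at bases 1 and 12 of the transcript, as had 0.457% of promoters. The core of interferon response elements, GAAANNGAA, searched on both strands, was found in that of Socs1, in overlapping copies starting at -83 and -77, and in 8.56% of all promoters. Neither was found in this window of Socs4. A match in such a window is a matter of letters and does not show binding. Both motifs were chosen after the values were seen, and the interferon one is a base shorter than a form searched first, for which Socs1 had the same pair of matches. Capitals mark the matches. Cish is shown at chr9:107296654-107296683 (+), Socs3 at chr11:117969367-117969616 (-) and Socs1 at chr16:10785537-10785786 (-).
Cish: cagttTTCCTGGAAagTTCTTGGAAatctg
Socs3: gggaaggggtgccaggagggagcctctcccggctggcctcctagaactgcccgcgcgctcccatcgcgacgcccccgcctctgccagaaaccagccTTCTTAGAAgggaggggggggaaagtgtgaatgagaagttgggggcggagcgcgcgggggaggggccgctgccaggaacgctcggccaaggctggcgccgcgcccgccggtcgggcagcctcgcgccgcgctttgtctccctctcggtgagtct
Socs1: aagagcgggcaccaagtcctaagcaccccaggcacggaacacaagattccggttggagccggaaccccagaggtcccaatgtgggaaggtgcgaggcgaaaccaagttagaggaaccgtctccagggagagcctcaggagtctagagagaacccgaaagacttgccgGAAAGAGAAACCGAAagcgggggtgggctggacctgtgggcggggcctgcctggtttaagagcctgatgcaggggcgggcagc

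Signals are the scanner software's background-corrected intensities, and differences are log2 of knockdown over control after each array was set to its 75th percentile. That percentile was at a signal of 493 in control and 494 in knockdown cells, so signals can be read almost directly side by side. The ± beside a probe's difference is the software's own error, combined from both arrays. Beside a gene with several measured probes, it is these errors combined as if the probes were independent, so it shrinks with their number. Neither form covers differences between cultures or disagreement between probes of a gene. Measured spreads were smaller and larger than the median gene's error of 0.204. Replicate spots of the same probe had an SD of 0.0558, and different probes of the same gene one of 0.31. Well above background, by the scanner's flag, were 59.5% of probes for control cells and 58.6% for knockdown cells. A gene counted as measured with at least 1 probe so flagged on both arrays, as all 8 family genes had. Both arrays came from whole cultures, in which fewer cells of a type and less RNA per cell cannot be told apart. Of the 8 stem cell markers listed, Nes, Vim, Cd44, Msi1 and Prom1 were measured on both arrays, from Nes at -0.20 ± 0.20 to Prom1 at 0.01 ± 0.23. Their probes went both ways for Prom1 (-0.46 to 0.49), Cd44 (-0.44 to 0.31) and Msi1 (-0.38 to 0.18). Sox2 and Fabp7 were well above background on neither. Olig2 read 6.28 in control, not well above background, and 53.2 in knockdown cells, at least 4.39-fold higher against the lowest control signal well above background, on a probe in row 383 of the array. The brighter Stat5b probe read 1991 in control and 498 in knockdown cells, a difference of -2.0 ± 0.20, and a dimmer one read 14.7 and 7.49, the latter not well above background.

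Cish, the founding member, binds receptors at the docking sites of STAT5 and is induced by STAT5. Its probe read 705 in control and 863 in knockdown cells. The knockdown array was the higher by 0.29 ± 0.20, or 1.22-fold, a difference within the SD of 0.31 between probes of the same gene. Of all genes measured, 24.2% had a difference at least as high. Cish was thus not lower on the array where Stat5b was lower. Any part of the elements printed above in this reading was not tested.

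Socs2, which restrains growth hormone signalling, is the other member best known as a STAT5 target. On its RefSeq mRNA, probe A_51_P107362 read 3976 and 4307 on the control and knockdown arrays. Probe A_55_P1992838 of the same mRNA read 1609 and 1681. These are differences of 0.11 ± 0.20 and 0.06 ± 0.20, small on both probes.

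On the Ensembl transcripts of Socs2, probe A_52_P84037 read 159 in control and 343 in knockdown cells, 2.16-fold higher (1.11 ± 0.21). Probe A_55_P2072586 read 69.6 and 137, 1.96-fold higher (0.97 ± 0.21). The pair was therefore about 1 log2 unit higher on the knockdown array, where the RefSeq pair was not. A_52_P84037 was the only one of the family's 15 measured probes past 2-fold upward, as were 3.15% of all 32047 measured probes, and 0 of the 15 passed 2-fold downward, as did 2.62%.

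Averaged over the 4 probes, Socs2 differed by 0.56 ± 0.10, with an SD over its probes of 0.55. The mean was 1.04 over the Ensembl probes and 0.09 over the RefSeq probes, a gap of 0.95. Among the 2450 genes with both kinds of probe measured, the gap had a median of -0.04 and an SD of 0.49. A gap at least as large in the same direction was found in 60 of them (2.45%), and in either direction in 128 (5.22%). The Ensembl probes were also the dim ones of the 4. Of 9062 measured probes with a mean log2 level between -3.0 and -0.5, a range chosen after the values were seen, 4.52% were at least 2-fold higher and 4.83% were as high as the lower of this pair. The part of signal level in the gap was not tested.

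**Figure D1:**
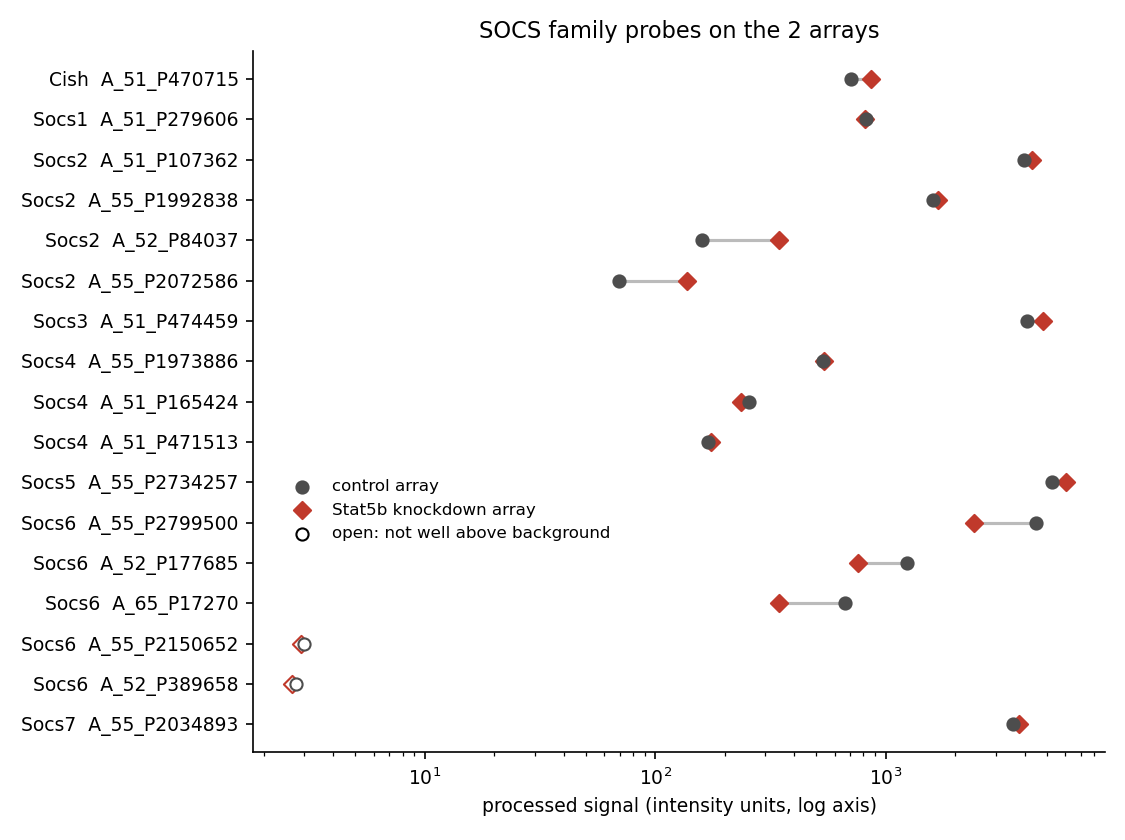
Processed signal of each of the 17 family probes (log axis, intensity units) on the control array (circles) and the knockdown array (diamonds), 1 array each, with open symbols where a probe was not well above background. The 3 measured Socs6 probes lie lower on the knockdown array, the dimmer Socs2 pair higher, and the remaining measured probes nearly coincide.

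Socs3 blocks signalling through the gp130 receptor chain and is induced by STAT3. Its probe read 4083 in control and 4822 in knockdown cells, a difference of 0.24 ± 0.20. The knockdown array was 1.18-fold higher, within the SD between probes. Stat3 itself was 1.87-fold higher there (0.90 ± 0.15), with its brightest probe at 2813 and 5492 and all 3 probes between 0.72 and 1.02.

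Socs1 inhibits Janus kinases directly and is the main brake on interferon signalling. Its probe read 819 in control and 813 in knockdown cells, a difference of -0.01 ± 0.20. The arrays thus gave nearly equal Socs1 signals.

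Socs4 and Socs5 are close relatives with long N-terminal regions and have been linked to EGF receptor signalling. The 3 Socs4 probes read 532, 254 and 169 in control cells and 539, 236 and 175 in knockdown cells. Their differences ran from -0.11 to 0.05, with a mean of -0.01 ± 0.12, the narrowest probe spread among the family genes with several measured probes (SD 0.08). Socs5 read 5270 and 6056, a difference of 0.20 ± 0.20. Egfr, the receptor of the EGF in the medium, was at 0.12 ± 0.14 over 4 probes that ran from -0.16 to 0.36.

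Socs6 binds receptor tyrosine kinases such as KIT and the insulin receptor. Probe A_55_P2799500 read 4465 in control and 2404 in knockdown cells, 53.8% of control. Probe A_52_P177685 read 1240 and 760, and A_65_P17270 read 664 and 345. All 3 were lower on the knockdown array, with differences of -0.89, -0.71 and -0.95, each with a software error of 0.20. The remaining Socs6 probes, A_55_P2150652 and A_52_P389658, read between 2.65 and 3.0 on the arrays and were not well above background on either.

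Over its 3 measured probes Socs6 was at -0.85 ± 0.12, or 55.5% of control, with an SD over probes of 0.13. That is below the SD of 0.31 that different probes of the same gene have on these arrays. At or below this difference were 616 genes, 3.77% of those measured, and 9.22% differed by at least as much in either direction. Of the 2696 genes with 3 or more measured probes, 840 (31.2%) had every probe below 0. Every probe was at or below the highest Socs6 probe, a cut-off taken from Socs6 itself, in 45 of the 2696 (1.67%). The RefSeq probes of Socs6 and the 1 Ensembl probe of it that was measured were all lower, and its other Ensembl probe, A_52_P389658, was near background.

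Socs7 shares the long N-terminal region of Socs6 and binds adaptor proteins. Its probe read 3556 in control and 3780 in knockdown cells, a difference of 0.09 ± 0.20. Socs6 and Socs7, the nearest relatives within the family, thus had different readings in this comparison, a difference between them that was not tested.

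As a family, 5 genes lay above 0 and 3 below, against 51.1% of all genes above 0. The median was 0.14, against 0.01 over all genes. Of the 8, 6 lay within 0.31 of 0, as did 56.6% of all genes, and the 2 beyond it were Socs2 and Socs6. All 17 probes lay in rows 20 to 314 of the array's 384, outside the last 64 rows, which 1 alternative setting leaves out.

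**Figure D2:**
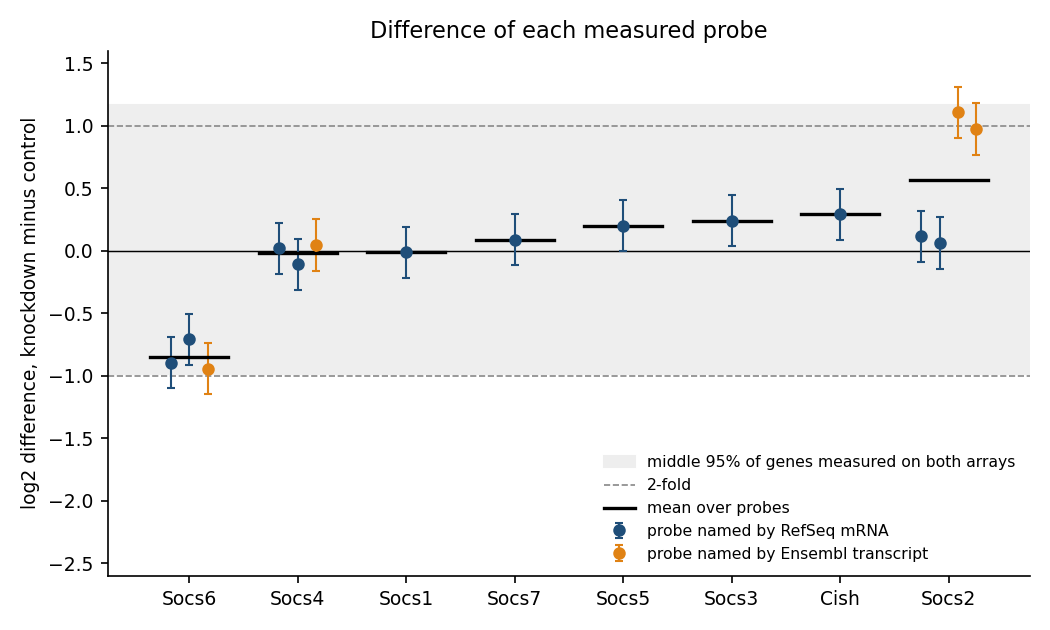
Log2 difference, knockdown minus control, of each measured family probe (points, with the scanner software's error as bars) and the mean of each gene (black lines), coloured by the kind of transcript that names the probe; grey spans the middle 95% of all genes measured and dashed lines mark 2-fold. Socs6 has its 3 probes between -0.95 and -0.71, and Socs2 splits into a pair near 0 and a pair near 1.

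The genes listed as ubiquitin ligase partners of the SOCS box were measured in full, with 9 of 9 on both arrays. Of these 3 lay above 0, 6 below and 0 past 2-fold, with a median of -0.17. Cul5, the cullin scaffold of SOCS ubiquitin ligases, was the lowest at -0.93 ± 0.12. Its 3 probes read 889, 487 and 1192 in control cells and 530, 270 and 528 in knockdown cells, so all 3 were lower there. Rnf7, the RING subunit that partners Cul5, was the highest at 0.34 ± 0.12, with its 3 probes between 0.33 and 0.35. Elob and Eloc, the elongins that bridge SOCS box and cullin, were at 0.11 ± 0.20 and -0.18 ± 0.12, and Cul2, another elongin-binding cullin, was at -0.53 ± 0.14. These last 3 were chosen after their values were seen.

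Among the Janus kinases and STATs listed, 7 of 9 measured genes lay above 0, with a median of 0.25, and Stat5b was the member past 2-fold. Stat5a, its near twin, read 627 and 679 on a probe and 2255 and 2286 on the other, a difference of 0.07 ± 0.14. The kinases Jak1, Jak2, Jak3 and Tyk2 were at 0.38 ± 0.20, 0.25 ± 0.15, 0.35 ± 0.13 and 0.61 ± 0.19. Stat2 was at 0.06 ± 0.21 and Stat6 at -0.35 ± 0.20, and Stat4 was well above background on neither array.

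Cytokine receptors went both ways, with 16 of 29 measured above 0, 0 past 2-fold and a median of 0.10. Csf2ra, the GM-CSF receptor chain, was the highest at 0.76 ± 0.20 and Epor, the erythropoietin receptor, the lowest at -0.51 ± 0.15. The growth hormone receptor Ghr, whose signalling Socs2 restrains, was at 0.10 ± 0.10, from probes that ran from -0.87 to 0.47. Receptor tyrosine kinases that SOCS proteins bind had 4 of 7 above 0 and a median of 0.12, from Fgfr3 at -0.38 ± 0.21 to Flt3 at 0.39 ± 0.20. The Flt3 probes split, at -0.18 and 0.96, on dim signals between 20.3 and 39.5. Kit was well above background on neither array. Of the cytokines and hormones that induce SOCS genes, 14 of 25 were measured, 7 above 0 and 7 below, with a median of -0.11. A further 2, Csf2 and Csf3, were well above background in control cells alone. They were at least 1.72-fold and 1.76-fold lower in knockdown cells, against the lowest knockdown signal well above background. The remaining 9 were well above background on neither array. Among those measured on both arrays, the growth factor Igf1 was the lowest at -0.61 ± 0.15, from probes at -1.04 and -0.18. The gp130 cytokine Ctf1 was the highest at 0.70 ± 0.20.

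Inhibitors of the pathway outside the family split evenly, 8 above 0 and 8 below of 16 measured, with a median of 0.08. Pias3, which binds STAT3, was the highest at 0.56 ± 0.20, and the phosphatase Ptpn11 the lowest at -0.68 ± 0.14. SOCS substrates and adaptors had a median of -0.05 over 8 genes, from the TLR adaptor Tirap at -0.76 ± 0.20 to the insulin receptor substrate Irs2 at 0.83 ± 0.20. The other SOCS-box proteins, with 22 of 28 measured, lay around a median of 0.02, from Asb1 at -0.65 to Asb2 at 0.69. None of these lists had a member past 2-fold.

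STAT5 targets outside the family had 6 of 13 measured genes above 0 and a median of -0.05. The kinase Pim1 was the lowest at -0.90 ± 0.21. Its 1 probe lay in row 383 of the array, among the last rows that an alternative setting leaves out. The liver factor Onecut1, past 2-fold, was the highest at 1.04 ± 0.18, from probes at 0.62 and 1.45. These Onecut1 probes were dim, at signals of 91.4 and 22.2 in control and 141 and 60.8 in knockdown cells. STAT3 targets had 5 of 14 above 0 and a median of -0.12, from Cebpd, a transcription factor of the acute-phase response, at -0.57 ± 0.20 to the NF-kB cofactor Bcl3 at 0.61 ± 0.20. The median over all genes was 0.01.

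**Figure D3:**
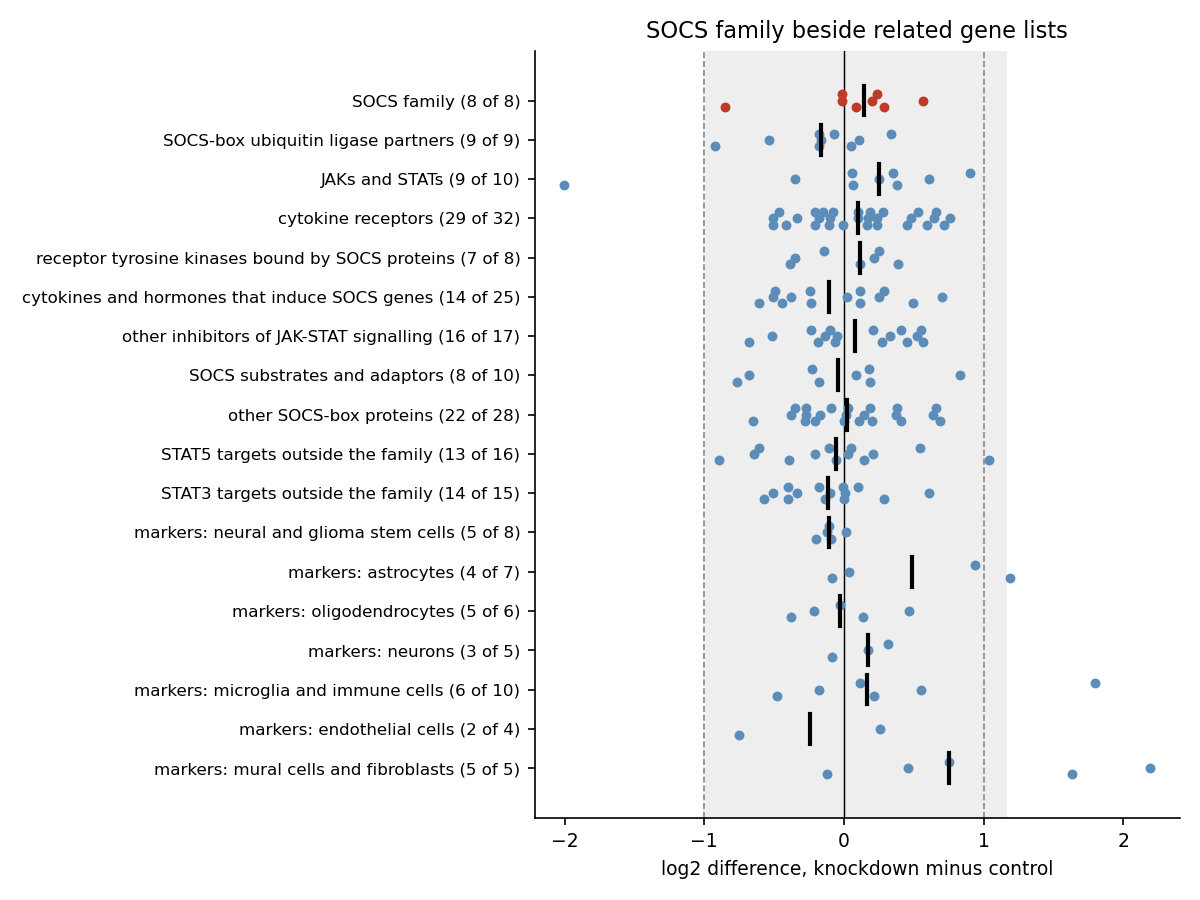
Log2 difference, knockdown minus control, of every measured gene (points) in the SOCS family (red) and 17 related lists and cell type marker lists (blue), with the list median as a black line and, in brackets, how many listed genes were measured. Grey spans the middle 95% of all genes and dashed lines mark 2-fold; the mural and fibroblast markers have the highest median, 0.76, and the family's is 0.14.

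Markers of other cell types were read beside the family, as sums over the brightest probe of each gene, in which a single bright gene can make up most of the value. Astrocyte markers summed to 2027 in control and 4227 in knockdown cells, of which 1832 and 3929 came from Aldoc, the member past 2-fold (1.19 ± 0.12). Aldh1l1 was the lowest at -0.08 ± 0.23, Slc1a2 was at 0.04 ± 0.25, and the measured Aqp4 probes split, at -0.02 and 1.90. S100b read 9.22 in control, not well above background, and 122 in knockdown cells, at least 10.1-fold higher by the rule used for Olig2. Gfap went the other way, at least 1.53-fold lower in knockdown cells, where it was not well above background, and Slc1a3 was not well above it on either array.

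The sums of mural and fibroblast markers were 25232 and 26887, of which 24654 and 24925 came from Acta2, the lowest of the list at -0.12 ± 0.12. Pdgfrb at 2.19 ± 0.33 and Col1a2 at 1.63 ± 0.19 were past 2-fold, and Col1a1 and Rgs5 were at 0.76 ± 0.13 and 0.46 ± 0.26. Pdgfrb was read by 1 probe, with an error above the median gene's 0.204. Microglia and immune markers summed to 11458 and 12709, with 6 of 10 measured, 4 above 0 and 2 below, and a median of 0.17. Tmem119 was the highest at 1.80 ± 0.24, and Cd68 the lowest at -0.48 ± 0.12, with its 3 probes between -0.53 and -0.42. Ptprc, Csf1r and Itgam were at 0.55 ± 0.20, 0.22 ± 0.14 and 0.11 ± 0.18, and C1qb was at -0.18 ± 0.28. Aif1, Cx3cr1, C1qa and P2ry12 were not well above background on either array.

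Oligodendrocyte, neuron and endothelial markers summed to 2478, 5118 and 144 in control and to 2388, 5750 and 116 in knockdown cells, with none of those measured past 2-fold. Oligodendrocyte markers ran from Mog at -0.38 ± 0.21 to Cnp at 0.46 ± 0.20, and neuron markers from Tubb3 at -0.08 ± 0.20 to Map2 at 0.31 ± 0.12. The measured endothelial markers were Cdh5 at -0.75 ± 0.23 and Pecam1 at 0.26 ± 0.23. The part of these markers in the Socs2 and Socs6 differences was not tested.

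**Figure D4:**
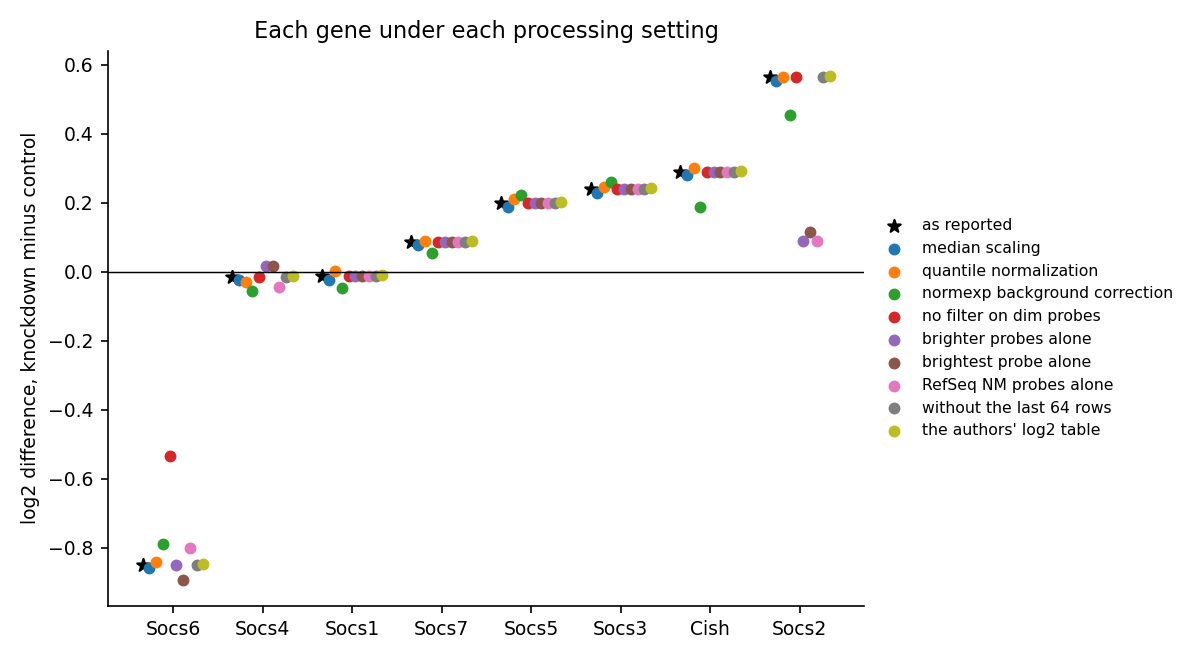
Log2 difference, knockdown minus control, of each family gene as reported (star) and under 9 other processing settings (coloured points). Socs6 lies between -0.89 and -0.53 under all of them, and Socs2 drops to 0.09 where the RefSeq probes or the brighter probes are used alone.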

How the data were processed

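Per the file headers, the scanner software was Agilent Feature Extraction (version 12.1.0.3, protocol GE1_1200_Jun14), with a grid of build mm9. The deposited intensity is the processed signal, background-corrected by that software and not scaled between arrays, with the software's error and flags. The authors' table holds log2 values, and 100% of the 56294 probes with a single spot equalled log2 of the processed signal minus 8.94 on each array, with a tolerance of 0.001. Its column medians were both -3.83.

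Outlier spots (112 and 94) were removed, and 0 were saturated. A probe's level was log2 signal, floored at 1, minus the array's 75th percentile, and genes were averaged over the probes well above background on both arrays. Family probes were named by the deposited symbol. Other probes were named by accession through the GRCm38 gene table (34555), by a current symbol (9184), a synonym (275) or the file's own symbol (2145), and 10429 had no name. Every measured family gene was named, and from the 17 other lists the JAKs and STATs listed, members past 2-fold and the highest and lowest. Further list genes named above, such as Ghr, Egfr and Kit, fall outside this rule. One gene and the list of its targets are not reported here. Members and lists were chosen with earlier results of these data known. The normexp alternative (limma 3.58.1, offset 50) used the median signal in place of the mean signal planned. The gene averaging was tested on simulated data. Python 3.11.15 was used. Only 2 arrays limit the precision.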

Additional observations from a re-analysis of the deposited data

How the results depend on the processing

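No paired analysis was possible because each group had 1 array, and no array could be left out. The 9 alternatives were median scaling, quantile normalization, normexp, no filter on dim probes, brighter probes alone, the brightest probe alone, RefSeq probes alone, leaving out the last 64 rows and the authors' table. Of the 72 family values, 67 moved by less than the error of their gene, combined over its probes as above. Many of the 72 could not move. No family probe lay in the last 64 rows, and settings that choose among probes left genes with 1 probe as they were. Median scaling and the authors' table shifted all genes by nearly the same small amount, -0.01 and 0.003. Socs2, Socs3, Socs5, Socs7 and Cish stayed above 0 and Socs6 below 0 under all 9. Socs1 (-0.05 to 0.00) and Socs4 (-0.05 to 0.02) crossed 0. Socs2 was at 0.45 with normexp, 0.0878 with brighter probes and with RefSeq probes alone, and 0.11 with the brightest probe. Socs6 was at -0.53 with no filter on dim probes, which adds its probes near background. Counts of genes at least 2-fold higher and lower were 190 and 168 with normexp, 1282 and 1000 with no filter, and 150 and 183 with brighter probes alone. List medians were set against the median gene's error, 0.204. With normexp they moved to 0.18 for astrocyte markers and 0.41 for mural markers. With no filter they moved to 0.11 for inducing cytokines, 0.11 for astrocyte, -0.25 for oligodendrocyte, -0.0495 for neuron and 0.46 for mural markers. With brighter probes they were 0.16 for cytokines (4 genes) and 1.19 for astrocyte markers (1 gene), and with the brightest probe -0.14 for receptor tyrosine kinases and 0.00747 for astrocyte markers. The cause of these moves was not tested, apart from the probes each setting keeps.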
